A study of Mus musculus with 3 samples.

Results

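Of 15524 Runx3 peaks in resting natural killer cells (NKC), 352 lay near a microRNA (miRNA) gene, which is 2.27% of the list (95% Wilson interval 2.04 to 2.51). A peak was counted as near when its midpoint was at most 10 kb from a gene that the GENCODE M1 annotation of the mouse genome (build mm9) classes as miRNA. The annotation holds 1576 such genes on the 20 chromosomes with peaks, and 279 of them had a peak within 10 kb. Of the 352 peaks, 318 were near 1 miRNA gene and 34 near several, with up to 5 genes at 1 peak.

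The data are chromatin immunoprecipitation sequencing (ChIP-seq) of resting splenic NKC of ICR mice, an outbred strain, fixed directly after isolation, with no genetic change or treatment in any group. The 3 samples, 1 per group, were precipitated with an in-house polyclonal serum against the transcription factor Runx3, with a monoclonal against H3K4me1 (monomethylation of lysine 4 on histone H3, found at enhancers), or with non-immune serum (NIS) as the control. Per the labels, cells were sorted for NKp46, whereas the study's methods describe a sort for DX5. What could be analysed was 1 list of Runx3 peaks and 1 list of 49902 H3K4me1-marked regions, both as coordinates, so neither signal strength nor a spread between replicates could be given, and intervals cover counting error over regions only.

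The labelled cell type was checked against genes that define lymphoid and myeloid lineages. All 8 NKC genes examined (Ncr1, Klrb1c, Itga2, Tbx21, Eomes, Prf1, Gzmb and Gzma) had a Runx3 peak within 5 kb, against 1 of 4 T cell genes, 2 of 4 B cell genes and 1 of 4 myeloid genes, beside 39.3% of all protein-coding genes. H3K4me1 separated the lineages less, with a region within 5 kb of 8 of 8 NKC, 2 of 4 T cell, 3 of 4 B cell and 3 of 4 myeloid genes, beside 67.7% of all protein-coding genes. The T cell gene with a peak was Cd3e, the B cell genes were Cd79a and Pax5, and the myeloid gene was Mpo. These are binding sites and not expression levels.

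A miRNA gene is transcribed into a long primary transcript, from which a hairpin is cut and trimmed to a mature miRNA. Many miRNA genes lie in clusters that share 1 primary transcript, and many lie in an intron of a host gene and are transcribed with it, so the start that drives a miRNA can be far from its hairpin. The mature miRNA is guided to its target messenger RNAs mainly by its seed, bases 2 to 8, and miRNAs that share a seed form a family. Runx3 is a RUNX domain factor that acts in cytotoxic lymphocytes and binds a consensus of 6 bases, counted here as TGTGGT in its usual form, with TGTGGC as another form, then TGCGGT as well, and lastly TGCGGC.

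The mature miRNAs below are from genes with a Runx3 peak within 10 kb to which the results return. They are printed 5′ to 3′ as RefSeq gives them (GRCm38.p6), with the seed in capitals, and are ordered by shared seed. For Mir150 the RefSeq sequences used held the 3p arm only, so its 5p arm is not shown. The target named for Mir150 below is not assigned to the printed arm.
let-7a-5p: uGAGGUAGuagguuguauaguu
let-7d-5p: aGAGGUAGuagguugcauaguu
let-7g-5p: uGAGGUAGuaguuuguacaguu
let-7i-5p: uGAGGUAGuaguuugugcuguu
miR-25-3p: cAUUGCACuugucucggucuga
miR-92b-3p: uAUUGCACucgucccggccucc
miR-367-3p: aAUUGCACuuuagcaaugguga
miR-15b-5p: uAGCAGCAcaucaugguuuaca
miR-16-5p: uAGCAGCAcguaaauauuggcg
miR-26a-5p: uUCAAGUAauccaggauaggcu
miR-26b-5p: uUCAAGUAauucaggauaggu
miR-132-3p: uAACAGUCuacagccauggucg
miR-212-3p: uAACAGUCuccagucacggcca
miR-142a-3p: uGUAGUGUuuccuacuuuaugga
miR-142a-5p: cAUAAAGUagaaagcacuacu
miR-150-3p: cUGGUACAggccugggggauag
miR-21a-5p: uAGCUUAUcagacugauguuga

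Some miRNA genes, 30 in all, lay whole inside a Runx3 peak. Those 4 that are known in lymphocytes and for which RefSeq gave both mature arms are shown as annotated on mm9, each on its own strand, with the mature sequences in capitals.
Mir142, chr11:87570366-87570429, plus strand: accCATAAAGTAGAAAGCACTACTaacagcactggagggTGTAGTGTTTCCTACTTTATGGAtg
Mir212, chr11:74986890-74986980, plus strand: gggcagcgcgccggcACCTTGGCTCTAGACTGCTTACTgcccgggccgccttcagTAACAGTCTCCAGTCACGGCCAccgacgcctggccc
Mir132, chr11:74987167-74987267, plus strand: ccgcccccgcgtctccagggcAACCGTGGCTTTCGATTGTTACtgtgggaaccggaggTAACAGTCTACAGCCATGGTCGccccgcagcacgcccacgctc
Mirlet7i, chr10:122422696-122422780, minus strand: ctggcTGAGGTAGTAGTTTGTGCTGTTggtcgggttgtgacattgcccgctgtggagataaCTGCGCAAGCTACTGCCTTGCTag

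The central 160 bp of 5 member peaks follow, chosen because they lie outside annotated exons at loci described below and hold a RUNX consensus. They are read from mm9 on the plus strand, with each match to the consensus on either strand in capitals, so that a match on the minus strand reads as the reverse complement, such as ACCGCA.
Peak upstream of Mir142, chr11:87565206-87565365: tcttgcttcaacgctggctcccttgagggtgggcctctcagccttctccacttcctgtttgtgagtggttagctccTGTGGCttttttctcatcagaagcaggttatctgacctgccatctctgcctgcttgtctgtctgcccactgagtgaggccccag
Peak downstream of Mir142, chr11:87572154-87572313: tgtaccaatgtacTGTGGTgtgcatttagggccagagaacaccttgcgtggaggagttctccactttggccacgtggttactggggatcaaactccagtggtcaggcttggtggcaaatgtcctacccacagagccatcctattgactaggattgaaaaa
Peak upstream of Mir21, chr11:86401522-86401681: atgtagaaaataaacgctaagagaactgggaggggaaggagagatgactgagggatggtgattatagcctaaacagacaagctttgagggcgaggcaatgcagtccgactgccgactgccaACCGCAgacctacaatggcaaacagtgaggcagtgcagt
Peak upstream of Mir23a, chr8:86722365-86722524: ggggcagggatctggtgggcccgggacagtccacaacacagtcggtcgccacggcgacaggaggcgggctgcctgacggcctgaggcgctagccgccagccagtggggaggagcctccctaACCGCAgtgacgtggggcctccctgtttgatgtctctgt
Peak upstream of Mir29b-1, chr6:31022195-31022354: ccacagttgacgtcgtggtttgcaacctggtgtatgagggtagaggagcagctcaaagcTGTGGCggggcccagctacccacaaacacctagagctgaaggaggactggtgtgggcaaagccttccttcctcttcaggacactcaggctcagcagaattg

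Runx3 peaks were less frequent near miRNA genes than near protein-coding genes. A peak lay within 10 kb of 17.7% of miRNA genes (95% interval 15.9 to 19.7), of 43.9% of the 22350 protein-coding genes and of 33.3% of all 37252 genes. Other short noncoding genes were close to the miRNA genes, with 18.0% of 1552 snoRNA genes and 14.8% of 1422 snRNA genes. Protein-coding genes are longer and so offer more sequence. Counted from the 5′ end of the gene alone, a peak lay within 10 kb of 35.1% of protein-coding genes, 27.5% of all genes, 17.7% of miRNA genes, 17.8% of snoRNA genes and 14.8% of snRNA genes.

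**Figure D1:**
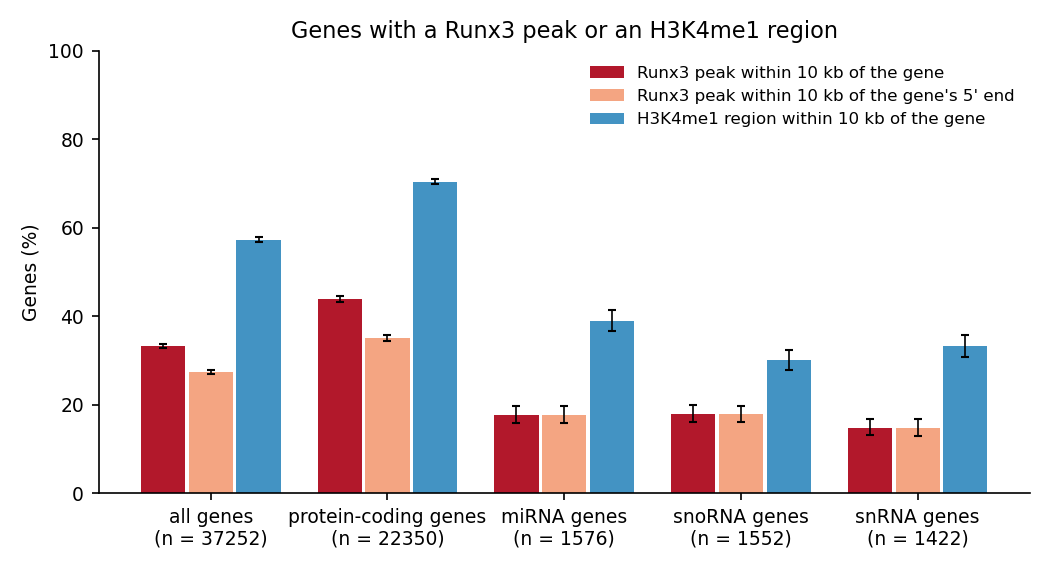
Bars give the share of genes (%) in each annotated class with a Runx3 peak within 10 kb of the gene, with a Runx3 peak within 10 kb of its 5′ end, and with an H3K4me1-marked region within 10 kb. Error bars are 95% Wilson intervals, which cover counting error only, and the miRNA genes stand at 17.7%, 17.7% and 39.0%.

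H3K4me1-marked regions were found within 10 kb of 615 miRNA genes, or 39.0% (95% interval 36.6 to 41.5). The corresponding shares were 70.4% of protein-coding genes, 57.3% of all genes, 33.2% of snRNA genes and 30.1% of snoRNA genes. The body of 175 miRNA genes (11.1%) touched a marked region. Of the miRNA genes with a peak, 278 also had a marked region, 337 genes had a region and no peak, 1 had a peak and no region, and 960 had neither. Thus 45.2% of the miRNA genes with a marked region had a Runx3 peak as well (41.3 to 49.2). The gene with a peak and no region was Mir297-2 on chromosome 10, whose peak lay in an intron of Sobp.

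The marked stretch was longer around miRNA genes with a Runx3 peak. Within 10 kb on either side of the gene, the 278 genes with a peak and a region had a median of 6.46 kb of H3K4me1 (interquartile range 3.66 to 9.88), and the 337 with a region and no peak had 2.27 kb (1.35 to 3.82). The miRNA gene itself lay in a marked region for 108 of the 279 genes with a peak, or 38.7% (33.2 to 44.5). Nearly all Runx3 peaks in the list overlapped H3K4me1, so a gene with a peak had a region almost by definition, and the lengths are given as a description.

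**Figure D2:**
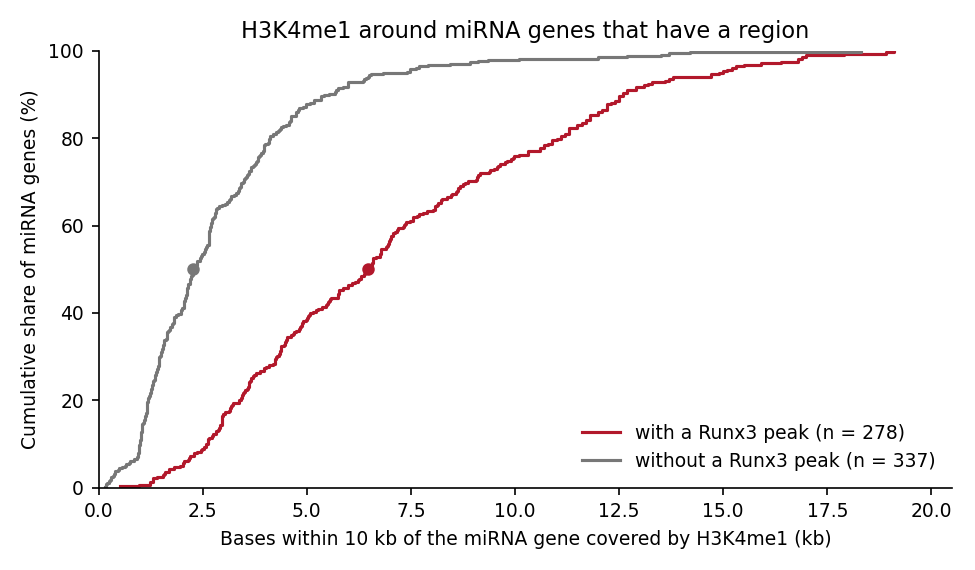
Cumulative share of miRNA genes (%) against the bases within 10 kb of the gene that H3K4me1 covered (kb), for the 278 genes with a Runx3 peak and the 337 without among those with a marked region. Dots mark the medians, 6.46 and 2.27 kb, and the curve of the genes with a peak lies to the right.

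The names in the annotation limit what can be said of single genes. A symbol beginning with Mir is carried by 529 of the miRNA genes, and a further 126 of the 1047 with clone names or similar were identified by a RefSeq miRNA sequence, which gives 655 identified genes. Of the 529, 425 held a RefSeq sequence (80.3%), and the rest count as identified by their symbol alone. Of these, 135 (20.6%, 17.7 to 23.9) had a peak, and so did 144 of the 921 others (15.6%, 13.4 to 18.1). Of the 921, 212 held no more than a mature sequence repeated in several genes and 709 held no RefSeq sequence. Of the 352 peaks, 176 were near an identified gene and 176 were near unidentified genes only, and the latter are described by position.

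Clustered miRNA genes share peaks, so loci were counted as well. Genes on 1 strand with at most 10 kb between neighbors were joined, which gave 1265 loci, and 248 of these (19.6%, 17.5 to 21.9) had a peak. Of the 95 loci with several genes 23 had a peak (24.2%, 16.7 to 33.7), and of the 1170 with 1 gene 225 had a peak (19.2%, 17.1 to 21.6). Most loci with a peak had a single one, namely 171, while 55 had 2 peaks, 15 had 3, 5 had 4, and 1 locus each had 5 and 6. None of the 9 loci with 6 or more genes had a peak.

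The largest of these was the 119-gene cluster in Sfmbt2 on chromosome 2, which had neither a peak nor an H3K4me1-marked region within 10 kb. The imprinted clusters on chromosome 12, with 32 genes in Mirg and 14 genes in or beside Meg3, had no peak either, and the second of them had 3.19 kb of H3K4me1. The Mir290 to Mir295 cluster of embryonic stem cells had no peak and no region. The Mir17 to Mir92-1 cluster in Mir17hg, which promotes lymphocyte proliferation, had 4.30 kb of H3K4me1 and no peak within 10 kb. The authors kept uniquely aligned reads, which cannot show binding in near-identical copies. The part of this in the empty Sfmbt2 cluster was not tested.

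By chromosome the share of miRNA genes with a peak ran from 5.56% on the X chromosome (6 of 108, 2.57 to 11.6) to 35.5% on chromosome 11 (33 of 93, 26.5 to 45.6). Chromosome 2, with the Sfmbt2 cluster, had 19 of 218 genes (8.72%).

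Mir142, a hematopoietic miRNA gene, had the most peaks of any named locus, 5 within 10 kb. The gene lies on chromosome 11 inside the noncoding transcript A430104N18Rik. Peaks at 87562016-87564263 (2248 bp wide) and 87564794-87565779 were centered 7.23 and 5.08 kb upstream in intergenic sequence, and the whole of each lay in a marked region of 17.7 kb. A peak at 87567769-87569433 covered the annotated start of the host, 478 bp from its midpoint, and 803 of its 1665 bp were marked. The peak at 87569814-87570820 covered the hairpin, with its midpoint 0.0490 kb upstream of the gene, and shared no base with H3K4me1. A last peak at 87571736-87572733 was centered 1.80 kb downstream and was marked along its full 998 bp. The hairpin thus lay in an unmarked gap between 2 marked regions, as the map of 10 loci shows.

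Mir150, a miRNA of mature lymphocytes that targets Myb, is an intergenic gene on chromosome 7 and had 3 peaks. The peak at 52376471-52377433 covered the hairpin, with its midpoint 0.175 kb upstream, and lay wholly in H3K4me1. Of the peaks downstream, the one at 52384060-52384907, centered 7.29 kb from the gene, lay 365 bp from a start of Rpl13a, a ribosomal protein gene. H3K4me1 covered 16.8 kb of the sequence within 10 kb of Mir150, in 4 regions, and the hairpin was marked.

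Mir21, which is expressed widely and rises in activated lymphocytes, lies on the minus strand of chromosome 11 at 86397569-86397660 within Vmp1, an autophagy gene. Its 3 peaks were centered 2.61, 3.94 and 9.06 kb upstream. The nearest, at 86399685-86400861, was in an exon of Vmp1 and 110 bp from an annotated Vmp1 start, and 198 of its 1177 bp were marked. The others, at 86401248-86401956 and 86406262-86407175, were intronic and wholly inside a marked region of 9.76 kb. The last of the 3 held no RUNX consensus.

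The Mir106b, Mir93 and Mir25 cluster, of the same kind as the Mir17 cluster, lies in an intron of the replication helicase gene Mcm7 on chromosome 5 and had 4 peaks, each at the start of a protein-coding gene. The peak at 138611995-138612796, centered 5.35 kb upstream of Mir106b, was 74 bp from 1 of several annotated Mcm7 starts. The peak at 138612949-138613649, centered 6.25 kb upstream, was 3 bp from a start of Ap4m1 and also covered annotated Mcm7 starts. Both of these peaks thus lay under 1 kb from a start of the host. The peaks at 138602029-138602686 and 138596440-138597319, downstream of Mir25 by 4.19 and 9.67 kb, were 20 bp from a Cops6 start and 49 bp from a Zfp113 start. Each of the 4 had 1 match to the RUNX consensus in its central 200 bp. The 3 hairpins themselves were not marked with H3K4me1.

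**Figure D3:**
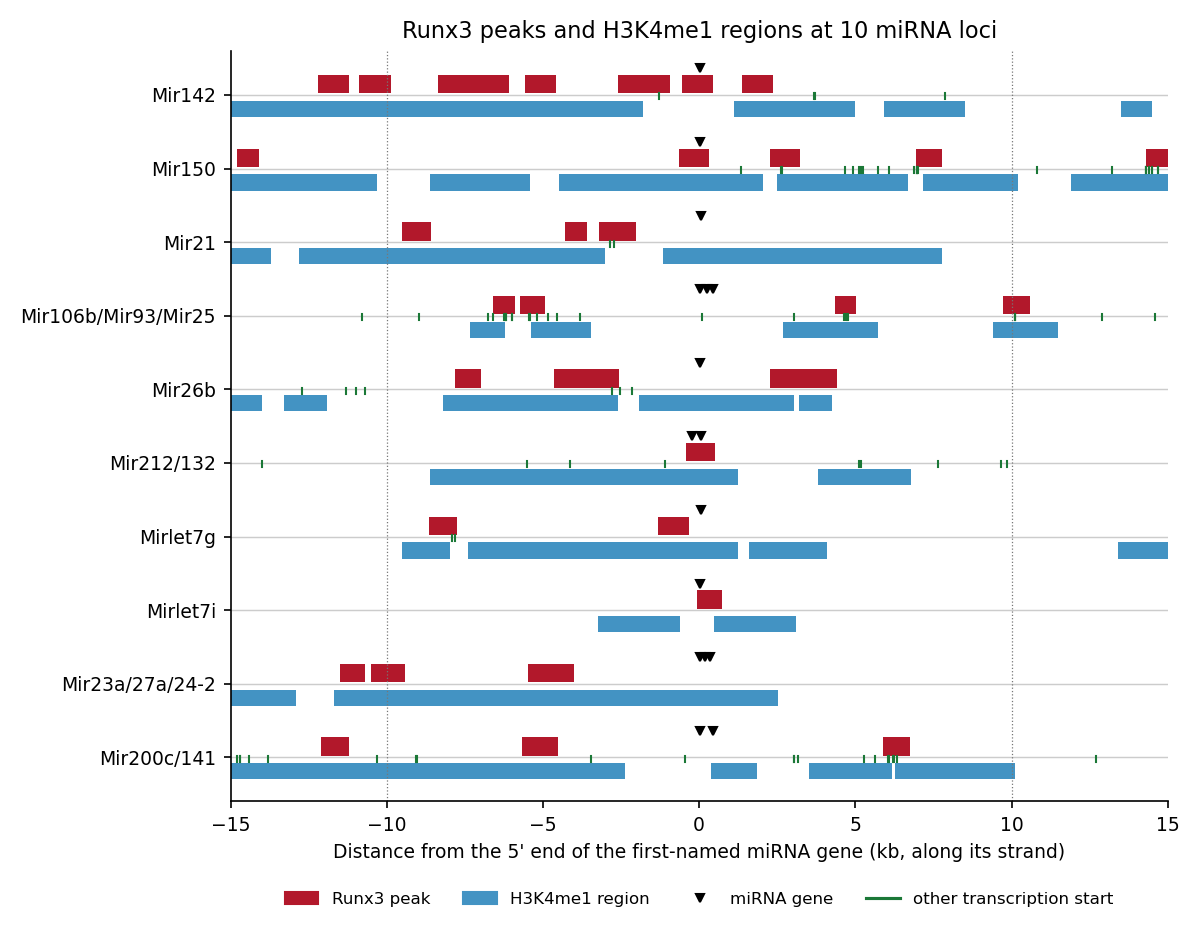
Map of 10 loci over 15 kb on either side of the first-named miRNA gene, in kb along its strand. The row of Mir212 and Mir132 is instead placed from Mir132. Runx3 peaks are in red, H3K4me1-marked regions in blue, miRNA genes as triangles and other annotated transcription starts as green ticks. Dotted lines mark 10 kb, and at Mir142 5 peak midpoints lie inside them. The peak that covers the Mir142 hairpin lies in a gap of H3K4me1.

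Several clusters with peaks hold miRNA genes known in lymphocytes. Mir132 and Mir212, a pair driven by the factor CREB in other cells, were both inside the peak at 74986757-74987670 on chromosome 11, which lay wholly in a marked region of 9.87 kb. Mir23a, Mir27a and Mir24-2 had peaks at 86726927-86728419 and 86721897-86722994 on chromosome 8, centered 4.74 and 9.97 kb upstream of Mir23a. Both lay in the marked region that also held the 3 hairpins. The nearest other annotated start, that of Nanos3, was 22.0 kb from the peak nearer to it and 27.2 kb from the farther peak. Mir15b and Mir16-2 had a peak 12 bp from the start of their host Smc4, a condensin subunit gene, 5.01 kb upstream. Mir29a and Mir29b-1 had a peak at 31021655-31022896 on chromosome 6, 9.18 kb upstream of Mir29b-1, with 7 matches to the RUNX consensus. Mir181c and Mir181d had a peak 7.58 kb upstream of Mir181c with no match.

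The let-7 genes were split. Mirlet7g, in an intron of Wdr82, had a peak 0.821 kb upstream and another 8.21 kb upstream, the latter 300 bp from the Wdr82 start. Mirlet7i, an intergenic gene 90027 bp from the nearest other annotated start, lay inside a peak at 122422047-122422855 centered 0.245 kb downstream, in a gap between 2 marked regions. Mirlet7a-1 and Mirlet7d had a shared peak at 48640896-48641464, 7.54 kb upstream of Mirlet7a-1, and Mirlet7a-1 had a further one 8.33 kb upstream. Mirlet7b, Mirlet7c-1, Mirlet7c-2, Mirlet7a-2 and Mirlet7f-2 had no peak within 50 kb.

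The miRNA genes known in lymphocytes were taken from a list of 75, of which 70 were found in the annotation. A peak lay within 10 kb of 26 of the 70 (37.1%, 26.8 to 48.9), and a marked region near 49 (70.0%, 58.5 to 79.5). Among all identified miRNA genes the shares were 20.6% with a peak and 45.2% with a region (41.4 to 49.0). The list was drawn up with earlier results of these data known, and clustered genes are counted singly in it. By locus the share was 17 of 46 (37.0%, 24.5 to 51.4), beside 25.7% of the 435 loci with an identified gene (21.9 to 30.1), and the intervals overlapped. Within 50 kb, 43 of the 70 (61.4%, 49.7 to 72.0) had a peak, against 20 of 40 genes listed for other tissues (95% interval 35.2 to 64.8%) and 38.9% of all miRNA genes. The median distance from the gene to the nearest peak midpoint was 22.8 kb for the list, 47.1 kb for the genes listed for other tissues and 80.1 kb for all miRNA genes. The values for all miRNA genes include the 921 unidentified ones, and neither was computed for identified genes alone or by locus.

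Beside the genes described above, the list had peaks near Mir26b, Mir26a-2, Mir101a, Mir425 and Mir186. Mir26b, in an intron of the phosphatase gene Ctdsp1, had 3 peaks of which 2 were over 2 kb wide, at 74436234-74438299 (2066 bp) and 74443144-74445301 (2158 bp) on chromosome 1. Mir26a-2, in the related Ctdsp2, had a peak 7.34 kb away that was 49 bp from the start of the neighboring gene Avil. Mir101a had a peak 2.55 kb upstream in an intron of E130102H24Rik. Mir186 had a peak 9.82 kb upstream at the start of its host Zranb2, and Mir425 one 8.39 kb away, 56 bp from the start of Impdh2.

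Among listed genes with no peak within 10 kb, several are known for a role in lymphocyte activation. The nearest peak to Mir155, which is induced on activation, was 121 kb away, and 3.35 kb around the gene was marked. The nearest peak was 12.6 kb from Mir146b and 15.4 kb from Mir146, which restrain NF-kB signaling. Mir223, a myeloid miRNA gene, was 584 kb from a peak. Mir181a-1 and Mir181b-1 were 159 and 160 kb from one, and Mir181a-2 and Mir181b-2 were 73.9 and 72.8 kb from one, and none of these 4 had a marked region within 10 kb.

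Others missed the limit by little. Mir222 and Mir221 were 10.7 and 11.3 kb from a peak, and Mir16-1 and Mir15a, the pair in the tumor suppressor transcript Dleu2, were 11.3 and 11.5 kb from one, with a peak at a Dleu2 start. Mir342, in Evl, was 12.2 kb from a peak, and Evl had a peak at a start. Its hairpin was marked, and H3K4me1 covered 12.0 kb of the sequence within 10 kb of Mir342. Mir24-1, Mir191, Mirlet7e, Mirlet7f-1 and Mir378 were the 5 listed names not found.

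**Figure D4:**
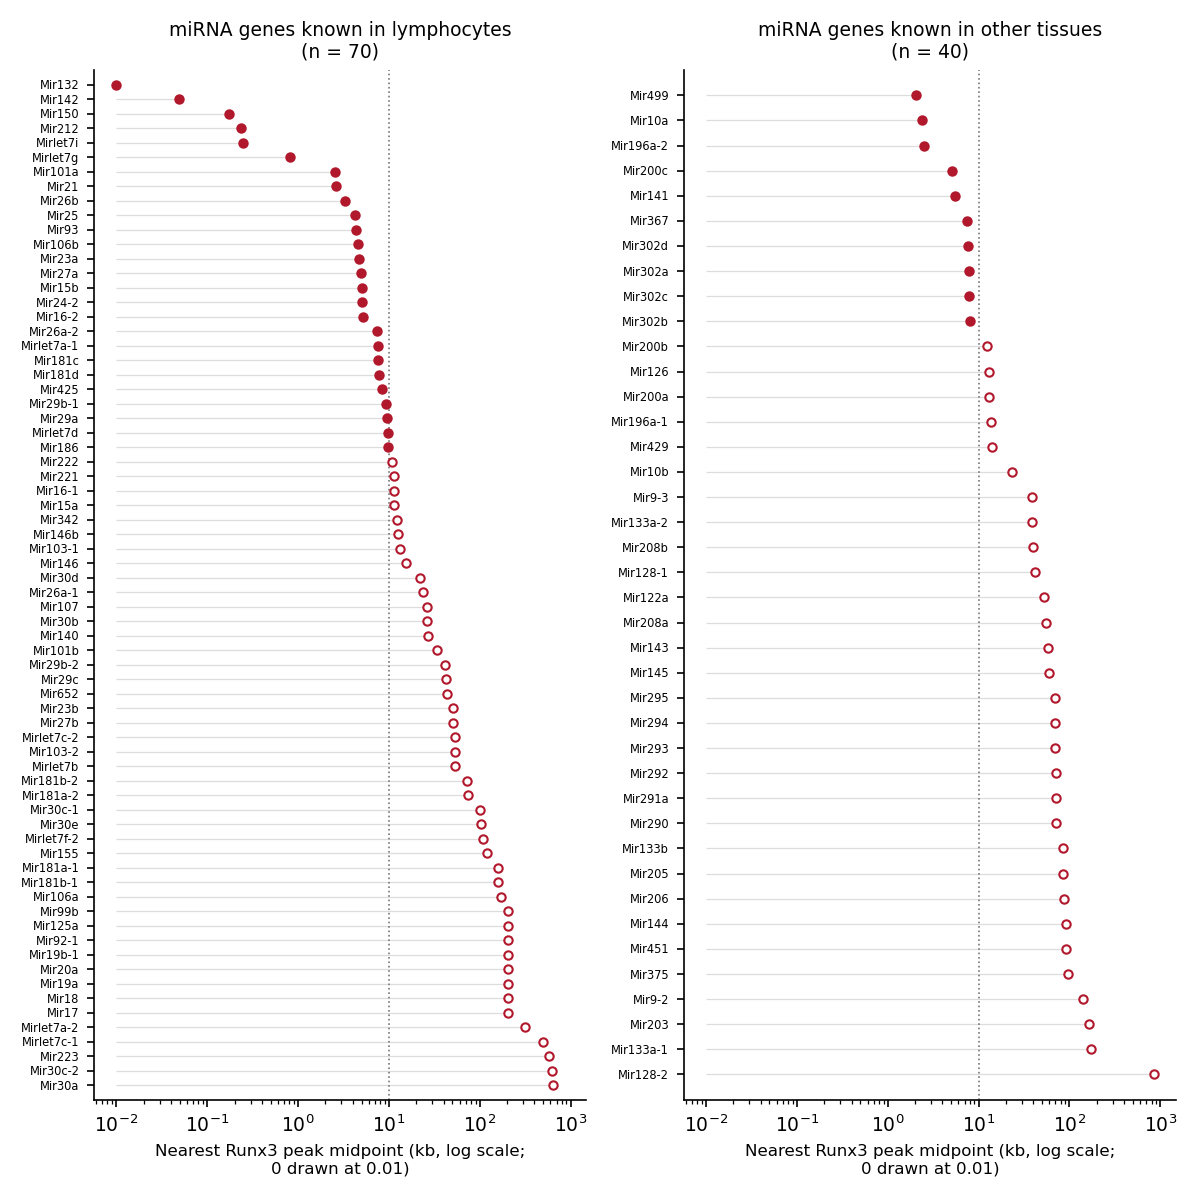
Distance from each listed miRNA gene to the nearest Runx3 peak midpoint (kb, log scale, with 0 drawn at 0.01). Shown are the 70 genes counted from the lymphocyte list and the 40 counted from the list for other tissues. Filled points have a peak within 10 kb (dotted line), 26 on the left and 10 on the right.

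Another list held 46 miRNA genes known for other tissues, of which 40 were found by the names used. Mir124-1 and Mir124-3 were not matched to the annotated Mir124a-1 and Mir124a-3 and are left out of the 40. Neither had a peak within 10 kb, and both had H3K4me1 there (4.63 and 2.27 kb). Peaks lay near 10 of the 40 (25.0%, 14.2 to 40.2), beside 20.6% of identified genes, and marked regions near 22 (55.0%, 39.8 to 69.3), beside 45.2%. By locus 5 of 25 had a peak (95% interval 8.86 to 39.1%), beside 25.7% of loci with an identified gene, so that these shares were near those of identified miRNA genes in general. Some of these peaks were at starts of neighboring genes. The Mir302 and Mir367 cluster of embryonic stem cells, 5 of the 10 genes, had 1 peak, 21 bp from the start of Larp7, 7.52 kb downstream of Mir367. The epithelial Mir200c and Mir141 had a peak in an intron of the phosphatase gene Ptpn6, a brake on NKC activation, and one 5 bp from the start of Emg1. Mir10a and Mir196a-2, in the Hox clusters, had peaks 2.41 and 2.51 kb away, the second 478 bp from a start of Hoxc9. Mir499, in an intron of the myosin gene Myh7b, had a peak 2.04 kb downstream with 4 RUNX matches. The liver gene Mir122a, the muscle genes Mir206, Mir133b, Mir208a and Mir208b, and the erythroid pair Mir144 and Mir451 had none.

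Host genes were counted on the strand of the miRNA gene. Of 659 miRNA genes inside a host 137 had a peak within 10 kb (20.8%, 17.9 to 24.1), and of 917 with no host 142 had one (15.5%, 13.3 to 18.0), a difference of 5.30 percentage points (95% interval 1.47 to 9.24). Clustered genes were counted singly here, so the interval treats genes of 1 locus as independent. The 119-gene cluster in Sfmbt2, with no peak, weighs on the hosted share, and no count by locus was made. Among identified genes the shares were 84 of 381 (22.0%, 18.2 to 26.5) and 51 of 274 (18.6%, 14.5 to 23.6), with overlapping intervals. The genes with a peak had 135 different hosts.

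Peaks at the start of the host were common and often far from the hairpin. Of the 137 hosted genes with a peak, 78 (56.9%, 48.6 to 64.9) had one under 1 kb from a host start. A further 100 hosted genes had a peak at a host start and none within 10 kb. In all, 193 of 659 (29.3%, 25.9 to 32.9) had a peak at a host start at any distance, which also counts genes with a host-start peak farther away and a different peak within 10 kb. Counted once each, 165 of 419 protein-coding hosts had a peak under 1 kb from a start (39.4%, 34.8 to 44.1), beside 27.2% of all protein-coding genes. Any annotated start of a gene counted, and the number of starts per gene was not matched between hosts and other genes. Among the identified genes whose hosts had a peak at a start and that are not members were Mir107, Mir103-1, Mir140 and Mir101b, with nearest peaks at 25.9, 13.1, 27.1 and 34.1 kb, and Mir29b-2 and Mir29c at 41.7 and 42.2 kb.

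The remaining loci among the 10 with the most peaks whose genes have a Mir symbol, with a tie-break by H3K4me1, were less known miRNA genes. Mir1190, in the signaling gene Ccdc88c, had 4 peaks and 17.0 kb of H3K4me1. Mir1931 in the kinase gene Cdk17, the intergenic Mir1934 and Mir1932, and Mir207 in the co-chaperone gene Dnaja1 had 3 each, as had Mir92b, which shared the last count and had less H3K4me1. At Mir207 all 3 peaks lay within 1.81 kb of the gene and 2 of them within 62 bp of a Dnaja1 start. At Mir1934 the 3 peaks were at the starts of Mpdu1, Cd68 and Eif4a1. At Mir92b, which carries the miR-25 seed, the 3 peaks were 1.09, 3.98 and 6.59 kb upstream and the middle one was 62 bp from a start of Muc1.

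Of genes without a Mir symbol, AC159474.1 had 6 peaks, the highest count at any locus. It lies within Gna15, a G protein gene of blood cells, and has the pseudogene Gm16106 as its host on its own strand. Its peaks included ones 77 bp from the start of the lymphocyte receptor gene S1pr4 and 128 bp from that of Gna15. The gene held the mature sequence of Mir682, which occurs in several annotated genes, and was left unidentified. CT009708.1, identified as Mir3109 and hosted by Anxa2, had 4 peaks, all upstream. AC154455.1, identified as Mir3075 and hosted by the transcriptional coregulator gene Zmiz1, also had 4, of which 3 lay in a marked region of 76.0 kb and 1 covered the hairpin.

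A Runx3 peak touched the body of 37 miRNA genes (2.35%, 1.71 to 3.22), and 30 of these lay whole inside a peak. They met 36 different peaks, and for 24 genes the peak lay under 1 kb from another annotated start. The body of 14 was also marked with H3K4me1. Identified genes among the 37 numbered 20. Beside Mir142, Mir150, Mir132, Mir212 and Mirlet7i they were Mir207, Mir484, Mir697, Mir707, Mir1893, Mir1932, Mir1938, Mir1945, Mir297-2, Mir3075, Mir3077, Mir5100, Mir5131, Mir5132 and Mir5136. Mir484, at 14159719-14159785 on chromosome 16, was 108 bp from its peak midpoint, which was 244 bp from the start of 4921513D23Rik.

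**Figure D5:**
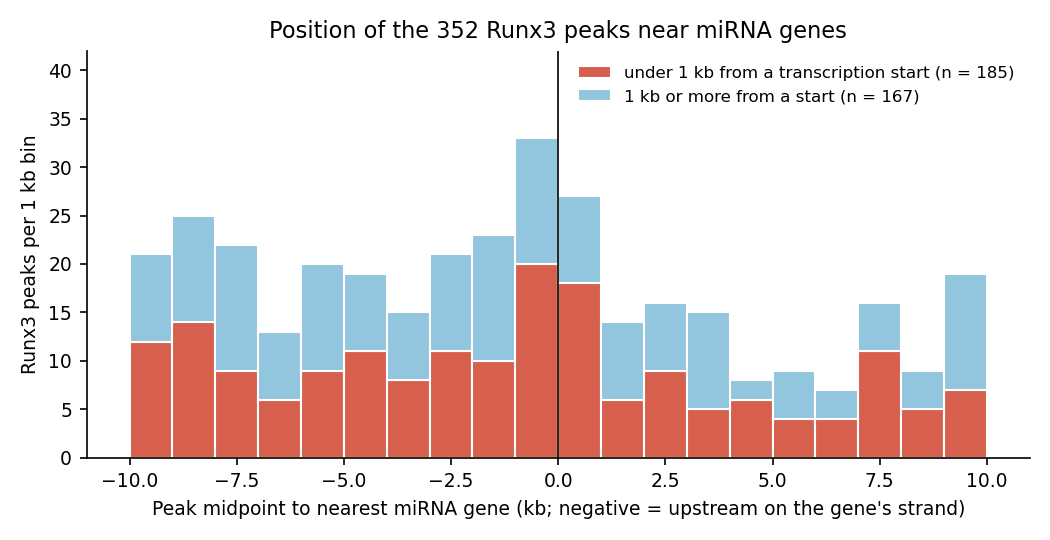
Number of the 352 Runx3 peaks per 1 kb bin of distance from peak midpoint to the nearest miRNA gene (kb, negative upstream), split into 185 under 1 kb from another annotated transcription start and 167 farther away. Midpoints over a gene are drawn at 0, and 60 peaks lay within 1 kb.

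Upstream positions were more frequent than downstream ones. The midpoint was upstream of the nearest miRNA gene for 212 of the 352 peaks (60.2%, 55.0 to 65.2), downstream for 136 (38.6%, 33.7 to 43.8) and over the gene for 4. Within 1 kb of the gene 33 were upstream and 23 downstream, and beyond 1 kb 179 were upstream and 113 downstream. No such share is given for other gene types. The 5′ end of a host lies upstream of its miRNA gene by definition, and the part of this in the split was not tested. By distance 60 lay within 1 kb, 37 between 1 and 2 kb, 94 between 2 and 5 kb and 161 between 5 and 10 kb.

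The limit itself fell among similar peaks. The members just inside were 9939, 9972 and 9982 bp from AC073553.1, Mir23a and Mir707, and the peaks just outside were 10046, 10116 and 10141 bp from AC129563.1, AC048362.1 and Mir1936.

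Peaks near miRNA genes were often close to the transcription start site (TSS) of another gene. Under 1 kb from a TSS, with the starts of miRNA genes left out, lay 185 peaks (52.6%, 47.3 to 57.7), against 39.0% of all Runx3 peaks (38.2 to 39.7). The 185 lay at the starts of 178 different genes. Distances of 5 to 50 kb were held by 23.6% of the members (19.4 to 28.3) and 36.4% of all peaks, and 50 kb or more by 3.41% (1.96 to 5.86) and 9.03%. In the annotation 140 midpoints were intergenic, 134 in introns, 72 in exons of protein-coding genes and 6 in exons of noncoding genes.

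Overlap with H3K4me1 was as frequent as in the whole list. At least 1 bp was shared by 337 of the 352 peaks (95.7%, 93.1 to 97.4), and by 95.7% of all Runx3 peaks. The midpoint lay in a marked region for 77.8% of the members (73.2 to 81.9) and 83.6% of all peaks. The mark at the midpoint moved with distance to a TSS, at 63.2% (56.1 to 69.9) for members under 1 kb from one and 94.0% (89.3 to 96.7) for the rest. In the whole list the corresponding shares were 66.1% and 94.7%. Of the 15 members without any overlap, 9 were under 1 kb from a TSS, among them peaks at Hnrnpk near Mir7-1, at Tgif1 near Mir1195 and at Ercc2 near Mir343.

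The RUNX consensus, any of the 4 sequences named above on either strand, was found in 90.6% of the members (87.1 to 93.2) and 93.3% of all peaks (92.9 to 93.7). In the central 200 bp it was found in 62.8% (57.6 to 67.7) and 69.1% (68.4 to 69.8), whereas 24.6% of all 200 bp windows of the genome held it. Matches numbered 3.16 per kb in members and 3.19 per kb in all peaks. A match is a description of the sequence and does not show which base was bound.

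Members were of ordinary width, with a median of 846 bp (interquartile range 714 to 995), against 825 bp (696 to 967) in the whole list. The 5 widest were 2703 bp near AL596215.1, identified as Mir5100 in Smcr7, 2248 bp at Mir142, 2198 bp near AC152453.1 in an intron of BC030307, 2158 bp at Mir26b and 2104 bp near AC114819.1. The protein-coding start nearest to the last was that of Irf8, an interferon regulatory factor gene, 20243 bp away.

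Families that share a seed were compared among identified genes in which a RefSeq mature sequence was found. Of 736 seeds 192 belonged to a gene with a peak, 9 to peaks at 2 or more loci and 2 to peaks at 3. For comparison, 25.7% of all loci with an identified gene had a peak (21.9 to 30.1). Each family has few loci, and no family count was tested against this share. The families described next are a selection. Peaks also lay at 2 of 3 loci for the seeds of miR-7, of miR-196 and of miR-130 with miR-301. For the seed of the miR-301 5p arms it was 2 of 2 loci. The seed GAGGUAG of let-7 was carried by 11 genes at 8 loci, of which 4 genes at 3 loci had a peak. The seed AUUGCAC of miR-25 was carried by 7 genes at 6 loci, and Mir25, Mir92b and Mir367, each at its own locus, had a peak while Mir32, Mir363, Mir92-1 and Mir92-2 had none. For the seed AGCAGCA of miR-15 and miR-16 a peak lay at 2 of 4 loci, those of Mir15b with Mir16-2 and of Mir195 with Mir497. For UCAAGUA of miR-26 a peak lay at 2 of 3 loci, Mir26a-2 and Mir26b. For AGCACCA of miR-29 a peak lay at 1 of 2 loci. For ACAUUCA of miR-181 it was 1 of 3 loci, and for AAAGUGC of the miR-17 family also 1 of 3, that of Mir106b and Mir93.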

How the data were processed

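Chromatin of resting splenic NKC was precipitated with antibodies to Runx3 or H3K4me1 or with NIS, 1 sample each, and fragments of about 300 bp were sequenced as 40 bp reads. According to the study's methods and the submitters' processing notes (CASAVA 1.7), the authors aligned reads to mm9 with ELAND, kept uniquely aligned reads, and called regions with MACS against NIS with repeats joined and the larger data set scaled to the smaller. The deposited lists were used as coordinates, so depth per region is unknown. Positions are given 1-based. The coordinates and GENCODE M1 genes (miRNA and other gene types) were compared on 20 chromosomes, and 1 H3K4me1 region ended past a chromosome end.

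Distances ran from the peak midpoint to the nearest base of the gene. Overlap required 1 bp. TSS distances used 85234 starts of transcripts other than miRNA. A host was a gene on the same strand that contains the miRNA gene. A clone-named gene was called identified when it held a RefSeq (GRCm38.p6) hairpin, or a mature sequence found in no other such gene, allowing a flank of 30 bp. RefSeq served for names and sequences only, never for coordinates. Shares carry 95% Wilson intervals, and the host difference a Newcombe interval. No test was made, since each antibody has 1 list. The computations were tested on simulated data. Python 3.11.15, numpy 2.4.6, pandas 2.3.3, scipy 1.17.1, pysam 0.24.0 and matplotlib 3.10.9 were used.

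Named were the listed lymphocyte and other-tissue miRNA genes, the 10 loci with the most peaks (Mir symbols first, ties by H3K4me1), genes touched by a peak, the 5 widest members and 3 peaks on either side of the 10 kb limit. Mir3109, Mir3075, the 6-peak locus, the family members outside the lists, the largest clusters, hosts with a peak at a start, and the peaks without H3K4me1 were named after their values were seen. The members and lists were chosen with earlier results of these data known. Alternatives were other distance limits, gene sets, overlap rules, TSS sets and a chromosome X exclusion. The position of 1 peak near Mir150 is not reported here.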

Additional observations from a re-analysis of the deposited data

How the results depend on the processing

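With a distance limit of 2, 5, 20 and 50 kb instead of 10 kb, the number of Runx3 peaks near a miRNA gene was 97, 191, 608 and 1366, the share of miRNA genes with a peak 5.84%, 11.0%, 26.5% and 38.9%, and the share of miRNA loci with one 6.80%, 12.5%, 29.9% and 44.2%. With Mir-named genes alone 131 peaks counted, and the share of loci was 25.5%. With identified genes alone, chosen after seeing the data, the shares were 20.6% of genes and 25.7% of loci. H3K4me1 was found near 43.9% of Mir-named genes, within 2 kb of 21.7% and 5 kb of 30.5% of miRNA genes, and over the body of 11.1%. The share of peaks overlapping H3K4me1 was 77.8% by midpoint and 83.5% when 50% of the peak had to be covered. The share under 1 kb from a TSS was 58.8% with miRNA gene starts included. The RUNX consensus was in 62.8% by the central 200 bp. Of 35 alternatives over 9 results, the other 11 moved the value by less than its counting interval where it had one. Among them was leaving out the X chromosome. Only the host difference has a direction that could reverse, and it kept that direction in its alternatives. No paired analysis was possible because each antibody has 1 sample and no replicate number. The lists give no depth per region, so a gene without a peak shows only that none was called.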

Other observations

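Of the 37 miRNA genes touched by a Runx3 peak, 17 were unidentified, and 319 of the 921 unidentified genes (34.6%, 31.6 to 37.8) had an H3K4me1-marked region within 10 kb, against 296 of 655 identified genes (45.2%, 41.4 to 49.0). AC159624.1 lay 15 bp from the midpoint of a peak at a start of Ralgapa1 with no H3K4me1. Mirlet7f-2 had a peak at a start of its host Huwe1, a ubiquitin ligase gene, and none nearer to the hairpin than 109 kb.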
